A study of Homo sapiens with 6 samples.

Results

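A set of 42 genes of the 29744 listed had at least 2-fold higher RNA levels in LNCaP cells treated with CDKI-73 than in vehicle-treated cells. A gene entered the set when its mean with CDKI-73 was at least 3 CPM (reads of the gene scaled to a common sample total, hence a measure of its share among the reads counted in that sample), when log2 of the ratio of means was at least 1 after adding 0.1 CPM to each, and when its lowest CDKI-73 value lay above its highest DMSO value. Of the 51 genes that met these conditions, 9 were left out by name, as zinc finger genes, intergenic, antisense or small structural RNAs, or *JUND*. The 42 genes were thus chosen by their own CDKI-73 and DMSO values, so their difference between the groups is described below and was not tested.

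LNCaP cells are an established human prostate cancer line that depends on androgen, and the compound CDKI-73 inhibits the kinase CDK9. The cells received 250 nM CDKI-73 (3 biological replicates) or DMSO vehicle (3 biological replicates) for 4 h, and poly(A)+ RNA was sequenced with a stranded, single-end protocol. CDKI-73 also appears in the titles of the 3 vehicle samples, which were placed in the DMSO group by the label that gives their treatment. Both groups are the same line, so the data describe 1 cell line at 1 dose and 1 time.

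Within P-TEFb, CDK9 is the kinase that releases RNA polymerase II from its pause near the start of a gene into productive elongation. An inhibitor of this kinase lowers new transcripts of many genes at once, and mRNAs with short lives are then the first to be lost. CPM is a share of the whole, so a gain in amount and a smaller loss than that of other RNAs cannot be told apart. In bulk RNA, fewer cells of a type and less RNA per cell cannot be told apart.

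Among the promoters of the 3 genes that mark the set, that of *ADCY10* was lower in GC and CpG than those of *PPFIA4* and *PHLDA1*. The 250 bases before each start are given 5′ to 3′ on the strand of the gene, from RefSeq on GRCh38.p14. They lie at chr1:167914135-167914384 (minus strand), chr1:203026241-203026490 (plus strand) and chr12:76031777-76032026 (minus strand). Capitals mark a CCAAT box in *ADCY10*, an E-box (CACGTG) and 3 GC boxes (GGGCGG) in *PPFIA4*, and 1 GC box in *PHLDA1*.
ADCY10: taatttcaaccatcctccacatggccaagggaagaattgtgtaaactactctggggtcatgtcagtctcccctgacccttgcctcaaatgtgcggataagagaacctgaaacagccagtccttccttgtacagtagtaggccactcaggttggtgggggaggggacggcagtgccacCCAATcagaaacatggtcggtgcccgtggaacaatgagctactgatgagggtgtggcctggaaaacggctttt
PPFIA4: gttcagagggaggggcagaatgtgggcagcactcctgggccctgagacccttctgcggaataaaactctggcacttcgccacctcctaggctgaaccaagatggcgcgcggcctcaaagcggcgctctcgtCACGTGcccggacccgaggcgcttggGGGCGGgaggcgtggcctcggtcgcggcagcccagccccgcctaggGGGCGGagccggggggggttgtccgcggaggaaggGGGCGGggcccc
PHLDA1: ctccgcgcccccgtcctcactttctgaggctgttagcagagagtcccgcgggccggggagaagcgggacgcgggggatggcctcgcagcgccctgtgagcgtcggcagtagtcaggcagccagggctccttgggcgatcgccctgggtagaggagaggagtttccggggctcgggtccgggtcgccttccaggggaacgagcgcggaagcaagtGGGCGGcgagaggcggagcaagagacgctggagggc
Counted with the 50 bases after the start, GC content was 50.7% with 6 CpG for *ADCY10*, 73.3% with 33 CpG for *PPFIA4* and 69.3% with 32 CpG for *PHLDA1*.

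The samples had 46.1 to 60.9 M counted reads, inferred from the step of the low values, so that 1 read was worth 0.0164 to 0.0217 CPM, and the lowest value of any of the 42 genes corresponded to about 10 reads. The prostate luminal markers checked were expressed, with *KLK3* at 2480 to 2787 CPM in DMSO and 2865 to 3336 CPM in CDKI-73 samples and *FOLH1* at 1147 to 1175 and 1408 to 1449 CPM. The 5 immune markers summed to 0.19 to 0.23 CPM in DMSO and 0.35 to 0.62 CPM with CDKI-73, with *CD3E* at 0. The 5 stromal markers summed to 9.91 to 10.6 and 13.2 to 15.9 CPM (almost all *COL1A1*, with *COL1A2* at 0), the 4 endothelial markers to 10.0 to 10.1 and 10.0 to 11.9 CPM (almost all *VWF*), the 4 basal markers to 0.54 to 1.21 and 1.14 to 1.39 CPM, and the 5 neuroendocrine markers to 11.2 to 11.9 and 13.9 to 16.5 CPM (mostly *ENO2*). The part of these small differences in the results was not tested. CDKI-73 replicate 3 stood apart from replicates 1 and 2 for many genes. For some of the members concerned, ratios without it and from it alone are given below.

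Across the 42 genes, the log2 ratio of CDKI-73 to DMSO ranged from 1.01 to 3.85 with a median of 1.28, or 2.01-fold to 14.4-fold with a median of 2.43-fold. The ratio was 2 or more on the log2 scale in 11 genes, from 1.5 to 2 in 3 and under 1.5 in 28. Most members started from low RNA: the mean DMSO level was under 1 CPM in 7, from 1 to 5 CPM in 24 and at least 5 CPM in 11, with a median of 2.01 CPM against 6.53 CPM with CDKI-73. In 26 of the 42, every CDKI-73 sample was at least 2-fold above every DMSO sample. All 42 passed limma's test across 13373 genes at an adjusted p of 0.05 and 2-fold higher, which 1.11% of those genes did, and all 42 have groups that do not overlap, as 25.9% of tested genes have in this direction; both follow from the choice of the genes on the same contrast. The 4 genes with a DMSO mean under 0.5 CPM (*ADCY10*, LOC102723433, *PHKG1* and LOC102723939) entered that test only through their CDKI-73 values.

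**Figure D1:**
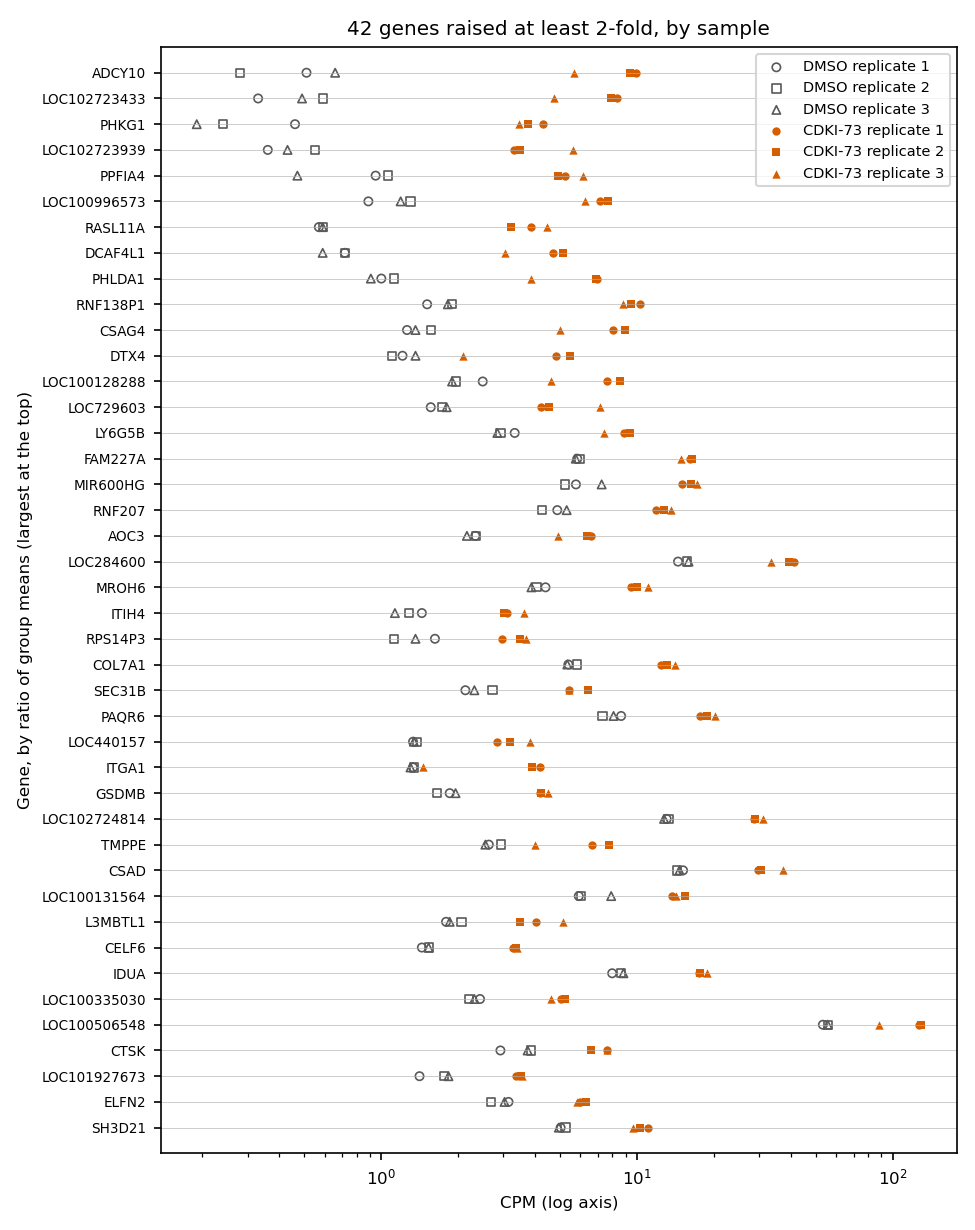
CPM (log axis) of the 42 raised genes in each of the 6 samples, ordered by the ratio of group means with the largest at the top; open gray symbols are DMSO and filled orange symbols CDKI-73, with 1 symbol shape per replicate. The groups separate for every gene by construction, widely for *ADCY10* (5.64 CPM at the lowest with CDKI-73, 0.66 CPM at the highest with DMSO) and barely for *ITGA1* (1.45 against 1.34 CPM).

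The thresholds cut through a continuous range of values. Just inside 2-fold were *SH3D21* (log2 ratio 1.01, with 11.06, 10.27 and 9.61 CPM in CDKI-73 replicates 1 to 3 and 5.02, 5.25 and 4.94 CPM in DMSO replicates 1 to 3), *ELFN2* (1.01, with 6.0, 6.3 and 5.84 against 3.14, 2.68 and 3.03 CPM) and LOC101927673 (1.02, with 3.37, 3.51 and 3.54 against 1.41, 1.76 and 1.83 CPM). Among the genes just outside were *PDIA2* (log2 ratio 0.97, with 2.44, 3.03 and 4.45 against 1.92, 1.65 and 1.34 CPM) and *DCST2* (0.96, with 12.93, 12.82 and 12.24 against 6.39, 6.64 and 6.35 CPM). In both of these, too, every CDKI-73 value was above every DMSO value. A further 306 genes met the ratio without overlap but stayed under 3 CPM, the nearest being *POTEF* at 2.91 CPM, while *NDUFA4L2* and *PLOD2* met level and ratio but overlapped.

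Among protein-coding members, those for 2 signaling enzymes had the largest ratios. *ADCY10* (chr1:167809386-167914134) encodes the soluble adenylyl cyclase, which makes cyclic AMP in response to bicarbonate. It measured 9.87, 9.40 and 5.64 CPM in CDKI-73 replicates 1 to 3 and 0.51, 0.28 and 0.66 CPM in DMSO replicates 1 to 3, a log2 ratio of 3.85. *PHKG1*, the catalytic subunit of muscle phosphorylase kinase, which switches on glycogen breakdown, measured 4.27, 3.74 and 3.45 CPM against 0.46, 0.24 and 0.19 CPM (log2 ratio 3.3). Both genes were close to silent in DMSO, and *ADCY10* was clearly lower in CDKI-73 replicate 3 than in the other 2, though still over 8-fold above the highest DMSO sample. The paralog *PHKG2* had 29.97 CPM with CDKI-73 and 29.57 CPM with DMSO (log2 fold change 0.02, limma adjusted p = 0.84).

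Among the 5 other adenylyl cyclases tested, which sit in the plasma membrane and answer to G proteins, 2 rose and 2 fell, by limma across all genes at an adjusted p of 0.05, while 4 rose and 0 fell once samples were scaled to their upper quartile. The 2 rises, those of *ADCY3* and *ADCY6*, became 0 with the replicate number as a block or without CDKI-73 replicate 2, and 1 without any single DMSO sample. *ADCY9* fell by 0.67 on the log2 scale (SE 0.089, adjusted p = 1.8e-04 by limma) and *ADCY6* rose by 0.17 (SE 0.055, adjusted p = 0.020 by limma). Of all tested genes 24.2% rose and 48.2% fell at that threshold, with a median log2 fold change of -0.18. The pseudogene *ADCY10P1* rose from 0.477 ± 0.090 to 1.13 ± 0.23 CPM (SD, n = 3 each, with log2 fold change 1.09 and limma adjusted p = 0.0011). It entered that test only through its CDKI-73 values. Of 25 tested cyclic AMP effectors, phosphodiesterases and anchoring proteins, 5 rose and 15 fell (12 and 8 under upper-quartile scaling), with a median of -0.43. Those with the largest change were *PDE7A*, a cyclic AMP phosphodiesterase (-2.38), *CREB1*, the transcription factor that cyclic AMP activates through protein kinase A (-2.06), *PDE4A* (-1.43) and the CREB coactivator *CRTC3* (-1.18). The catalytic subunit *PRKACA* of protein kinase A rose by 0.39.

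Scaffold and small GTPase genes formed the next group. *PPFIA4* (chr1:203026491-203078736) encodes liprin-α4, of a family of scaffolds best known for organizing presynaptic release sites. It measured 5.21, 4.90 and 6.12 CPM with CDKI-73 and 0.95, 1.06 and 0.47 CPM with DMSO, a log2 ratio of 2.57, and CDKI-73 replicate 3 was here the highest sample. *RASL11A*, a small GTPase of the Ras superfamily, measured 3.85, 3.2 and 4.45 CPM against 0.57, 0.59 and 0.59 CPM (log2 ratio 2.53). The DMSO samples of *RASL11A* lay within 0.02 CPM of one another.

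Most liprins other than *PPFIA4* were lower with CDKI-73, as were 48.2% of all tested genes. Of 5 tested, 4 fell (*PPFIBP2* by 1.43, *PPFIA1* by 1.06, *PPFIA3* by 0.82 and *PPFIBP1* by 0.72 on the log2 scale; limma adjusted p of 2.2e-04 or lower) and none had a positive log2 fold change, with 1 rising under upper-quartile scaling. *PPFIA2* had 146 CPM with CDKI-73 and 153 CPM with DMSO (adjusted p = 0.32 by limma). Among 15 tested genes of the presynaptic active zone, 2 rose and 5 fell (7 and 1 under upper-quartile scaling). These were 13.3% and 33.3%, against 24.2% and 48.2% of all tested genes. *RIMS1*, a vesicle-priming scaffold, fell by 0.65 and *UNC13B*, a priming factor, rose by 0.28. *RASL11B*, a relative of *RASL11A*, fell from 1.18 ± 0.031 to 0.00667 ± 0.012 CPM (SD, n = 3 each; limma adjusted p = 4.1e-07). It entered that test only through its DMSO values. Its CDKI-73 level was close to 0, so the fitted log2 fold change was set by the pseudocount. That fold change ran from -1.12 at 1 CPM to -6.37 at 0.01 CPM.

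*PHLDA1* (chr12:76025447-76031776), a pleckstrin homology-like domain gene induced by growth factor signals, measured 6.97, 6.92 and 3.86 CPM with CDKI-73 and 1.0, 1.12 and 0.91 CPM with DMSO (log2 ratio 2.44). Replicates 1 and 2 were nearly equal and replicate 3 was lower, yet over 3-fold above every DMSO sample. Of 4 tested relatives, *PHLDA2* rose by 0.45 on the log2 scale (SE 0.14, limma adjusted p = 0.016) while *PHLDA3* fell by 0.54 (SE 0.13, limma adjusted p = 0.0050), with *PHLDB1* and *PHLDB3* also lower; the fall of *PHLDA3* was 0.04 under upper-quartile scaling, which left 1 of the 3 falls. The rise of *PHLDA2* did not pass without DMSO replicate 2 (limma adjusted p = 0.062) or DMSO replicate 3 (limma adjusted p = 0.051).

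Ubiquitin pathway genes gave 4 members. *DCAF4L1*, an intronless relative of the cullin-4 ligase substrate receptor *DCAF4*, measured 4.68, 5.15 and 3.04 CPM with CDKI-73 and 0.72, 0.72 and 0.59 CPM with DMSO (log2 ratio 2.50). *RNF138P1*, a pseudogene of the ubiquitin ligase *RNF138*, measured 10.22, 9.42 and 8.83 against 1.51, 1.89 and 1.82 CPM (2.38). *DTX4*, a Deltex ubiquitin ligase of the Notch pathway, measured 4.83, 5.47 and 2.08 against 1.21, 1.1 and 1.36 CPM (1.68). In *DTX4* replicate 3 stood much nearer to the DMSO samples than to replicates 1 and 2. *RNF207*, a RING finger gene, measured 11.80, 12.74 and 13.56 against 4.87, 4.24 and 5.30 CPM (1.38). The relatives varied: *DTX2* fell by 2.44 and *DTX3L* by 1.68 on the log2 scale, and *DCAF4* fell by 0.92 (limma adjusted p of 4.1e-05 or lower for each), while *DTX3* was not past the threshold. *DCAF4L2*, the relative named most like *DCAF4L1*, had 0.83 ± 0.14 CPM with CDKI-73 and 0.00667 ± 0.012 CPM with DMSO (SD, n = 3 each) and was below the level required for the test.

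*CSAG4*, a pseudogene of a cancer-testis family on the X chromosome, measured 8.02, 8.94 and 4.97 CPM with CDKI-73 and 1.26, 1.56 and 1.36 CPM with DMSO (log2 ratio 2.31). Cancer-testis genes are normally active in the germ line and are switched on in many tumors. Of 12 others tested, 8 rose (66.7%) and 1 fell (8.33%), with a median log2 fold change of 0.26. Among all tested genes 24.2% rose and 48.2% fell, with a median of -0.18. The counts were 10 and 0 under upper-quartile scaling, and 5 and 1 with the replicate number as a block. The largest rises were those of *CSAG3* (0.69, SE 0.087), *MAGEA4* (0.54, SE 0.11), *PAGE1* (0.47, SE 0.19) and *CSAG1* (0.45, SE 0.049), all of them under 2-fold. *MAGEA12*, which overlaps *CSAG4* on the same strand, fell by 0.41. The count of 8 was 5 without CDKI-73 replicate 2, without CDKI-73 replicate 3 or without DMSO replicate 2.

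Genes for the matrix, the cell surface and secreted proteins made up a broad middle group with log2 ratios of 1.01 to 1.47. *LY6G5B*, a Ly6-family gene in the major histocompatibility complex, measured 8.87, 9.40 and 7.42 CPM with CDKI-73 and 3.32, 2.92 and 2.84 CPM with DMSO. *COL7A1*, the collagen of epithelial anchoring fibrils, measured 12.35, 13.07 and 14.04 against 5.38, 5.82 and 5.33 CPM. *PAQR6*, a membrane progestin receptor, measured 17.59, 18.69 and 20.05 against 8.65, 7.32 and 8.08 CPM. That the groups did not overlap in these 3 genes follows from the rule. The others were *AOC3*, an amine oxidase of the cell surface (2.28 to 5.95 CPM in mean), *ITIH4*, a plasma protease inhibitor chain (1.28 to 3.24), *CTSK*, the collagen-degrading cathepsin K (3.5 to 7.27), *ELFN2*, a leucine-rich repeat membrane protein, and *ITGA1*, the α1 chain of a collagen-binding integrin (1.32 to 3.17). Among relatives, the amine oxidases *AOC1* and *AOC2* rose by 0.67 and 0.46 on the log2 scale. Of the 5 other integrin α chains tested that share its stem, *ITGA3* rose by 0.49, *ITGA2*, *ITGA5* and *ITGA6* fell by 0.32 to 0.38 (adjusted p of 0.034 or lower by limma), and *ITGA7* was not past the threshold. *ELFN1*, which entered the test only through its DMSO values, fell by 1.37.

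Enzymes and other intracellular proteins had ratios in the same range. *CSAD*, which makes the taurine precursor hypotaurine, measured 29.71, 30.57 and 37.17 CPM with CDKI-73 and 15.10, 14.28 and 14.62 CPM with DMSO (log2 ratio 1.14). *IDUA*, the lysosomal iduronidase that degrades glycosaminoglycans, measured 17.36, 17.60 and 18.81 against 7.98, 8.66 and 8.83 CPM (1.07). *FAM227A* measured 16.01, 16.40 and 14.86 against 5.83, 5.95 and 5.75 CPM (1.42). The gap between the groups in these 3 genes follows from the rule too. The remainder were *MROH6*, a HEAT-repeat gene (4.09 to 10.1 CPM in mean), *SEC31B*, a COPII vesicle coat component (2.39 to 5.75), *GSDMB*, a gasdermin (1.82 to 4.28), *TMPPE*, a phosphoesterase-domain membrane protein (2.71 to 6.13), *L3MBTL1*, a reader of methylated histones (1.90 to 4.20), *CELF6*, an RNA-binding splicing regulator (1.5 to 3.34), and *SH3D21*, an SH3-domain gene. *MROH1*, a relative of *MROH6*, rose by 0.84 on the log2 scale (SE 0.066, limma adjusted p = 7.4e-06).

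Over all members, 87 genes shared a member's symbol stem. Of the 44 tested, 11 rose (25%), 22 fell (50%) and 11 passed in neither direction, shares next to the 24.2% and 48.2% of all genes; under upper-quartile scaling 27 rose and 11 fell, and with no filter on low levels 15 rose and 23 fell. *ADCY10P1*, which entered the test only through its CDKI-73 values, was the 1 tested relative at least 2-fold higher, against 7 that were at least 2-fold lower.

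Noncoding and unnamed genes were a large share of the set. RefSeq placed 36 of the 42 genes, of which 26 were protein-coding, 5 long noncoding and 5 transcribed pseudogenes. Protein-coding genes were 61.9% of the 42 and 94.6% of the 10407 genes with at least 3 CPM under CDKI-73, while transcribed pseudogenes were 11.9% and 1.06%, long noncoding RNAs 11.9% and 2.73%, and genes not placed 14.3% and 1.38%. Symbols made of LOC and a number were 12 of the 42 (28.6%) and 1.6% of the 10407. These shares are a description. The names left out by the rule, coding and noncoding, were still counted among the 10407 genes, and their effect on the shares was not tested.

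Unnamed genes were also among those with the largest ratios. LOC102723433 measured 8.35, 7.88 and 4.71 CPM with CDKI-73 and 0.33, 0.59 and 0.49 CPM with DMSO (log2 ratio 3.63). LOC102723939 measured 3.29, 3.47 and 5.62 against 0.36, 0.55 and 0.43 CPM (2.95). LOC100996573 measured 7.16, 7.71 and 6.23 against 0.89, 1.30 and 1.19 CPM (2.54). These 3 genes were not placed in the RefSeq table, and replicate 3 was the lowest CDKI-73 sample in LOC102723433 and LOC100996573 and the highest in LOC102723939. LOC100128288, a long noncoding RNA on chromosome 17, measured 7.62, 8.54 and 4.62 against 2.49, 1.96 and 1.89 CPM (1.67). LOC729603, the pseudogene *CHP1P2*, measured 4.19, 4.53 and 7.18 against 1.56, 1.73 and 1.80 CPM (1.59).

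Several unnamed or noncoding members had much higher CPM, which is not adjusted for length. LOC100506548 measured 125.85, 128.22 and 87.77 CPM with CDKI-73 and 53.13, 55.67 and 55.47 CPM with DMSO (log2 ratio 1.06). LOC284600 measured 40.89, 39.26 and 33.37 against 14.43, 15.64 and 15.87 CPM (1.30). LOC102724814, an antisense RNA that RefSeq names *AP1G2-AS1*, measured 28.63, 28.77 and 30.88 against 13.03, 13.25 and 12.73 CPM (1.17). The DMSO samples of these 3 were tight, while replicate 3 of LOC100506548 fell well short of the other CDKI-73 samples. *MIR600HG*, the host RNA of miR-600, measured 14.93, 16.17 and 17.14 against 5.76, 5.23 and 7.26 CPM (1.39). LOC100131564, likewise *CCDC18-AS1*, measured 13.72, 15.40 and 14.13 against 5.91, 6.04 and 7.91 CPM (1.11). The ribosomal protein pseudogene *RPS14P3* (1.37 to 3.38 CPM in mean), LOC440157 (1.35 to 3.27), LOC100335030 (2.31 to 4.96) and LOC101927673 (1.67 to 3.47) completed the set.

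CDKI-73 replicate 3 differed from replicates 1 and 2 in both directions among the members. The coefficient of variation between the CDKI-73 samples had a median of 10.8% in the 42 genes, 7.47% in all tested genes and 10.8% in the 2978 genes at least 2-fold lower without overlap. It was over 20% in 11 members (26.2%) and in 10.5% of all tested genes. Replicate 3 was the lowest CDKI-73 sample in 21 members (50%, against 45.2% of all tested genes) and the highest in 19 (45.2%, against 38.9%), shares near those of all genes. It lay more than 0.5 below the mean of replicates 1 and 2 on the log2 scale in 10 members (23.8%, against 5.22% of all tested genes and 16% of the lowered ones), and more than 0.5 above in 2 (LOC102723939 by 0.72 and LOC729603 by 0.71).

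The genes with the lower replicate 3 included both leading and marginal members. The difference was -1.42 in *ITGA1*, -1.27 in *DTX4*, -0.85 in *TMPPE*, -0.83 in *PHLDA1*, -0.79 in LOC100128288, -0.77 in LOC102723433, -0.76 in *ADCY10* and *CSAG4*, -0.68 in *DCAF4L1* and -0.53 in LOC100506548. For *ITGA1*, which measured 4.18, 3.89 and 1.45 CPM with CDKI-73 and 1.33, 1.34 and 1.30 CPM with DMSO, the log2 ratio was 1.54 without replicate 3 and 0.12 from replicate 3 alone. It was thus a member on the strength of replicates 1 and 2. The corresponding pair was 1.99 and 0.72 for *DTX4*, 1.38 and 0.54 for *TMPPE*, 2.67 and 1.83 for *PHLDA1*, and 4.06 and 3.3 for *ADCY10*. *PPFIA4* gave 2.48 and 2.75, LOC729603 1.31 and 2.02, and LOC100506548 1.21 and 0.68. *L3MBTL1* gave 0.94 without replicate 3, under the 2-fold threshold. With every CDKI-73 sample required to stand at least 2-fold above the mean DMSO level, a condition chosen after the data were seen, 32 genes met the rule.

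**Figure D2:**
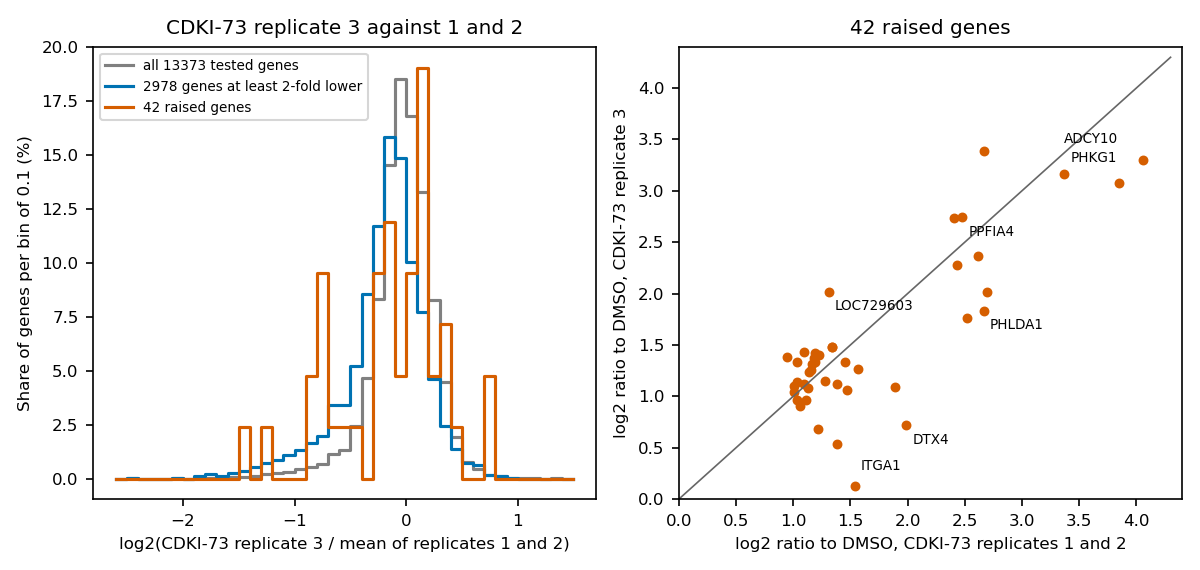
Left, share of genes (%) per bin of 0.1 in log2 of CDKI-73 replicate 3 over the mean of replicates 1 and 2, for all 13373 tested genes (gray), the 2978 genes at least 2-fold lower (blue) and the 42 raised genes (orange). Right, log2 ratio to the DMSO mean from CDKI-73 replicates 1 and 2 (horizontal) and from replicate 3 (vertical), 1 point per raised gene with the line of equality; *ITGA1* (1.54 and 0.12) and *DTX4* (1.99 and 0.72) lie far below the line, *PPFIA4* (2.48 and 2.75) near it.

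Members spanned less of the genome than other genes at the median, as a description without a test and without matching of levels. For the 32 with a GENCODE model, the median span was 15.5 kb, against 33.2 kb for 8446 other tested genes of the same range of expression, and 13 (40.6%) spanned under 10 kb, against 18.8%. Among protein-coding genes alone the medians were 17.6 kb for 25 members and 34.4 kb for 7988 others. The number of exons was alike (median 9.5 and 9), and 4 members (12.5%) had a single exon, against 2.79%. The longest members were *ITGA1* at 171.3 kb, *ADCY10* at 104.8 kb with 33 exons, *ELFN2* at 87.9 kb and LOC100131564 at 83.8 kb, while *PHLDA1* spanned 6.33 kb and *RASL11A* 4.36 kb.

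**Figure D3:**
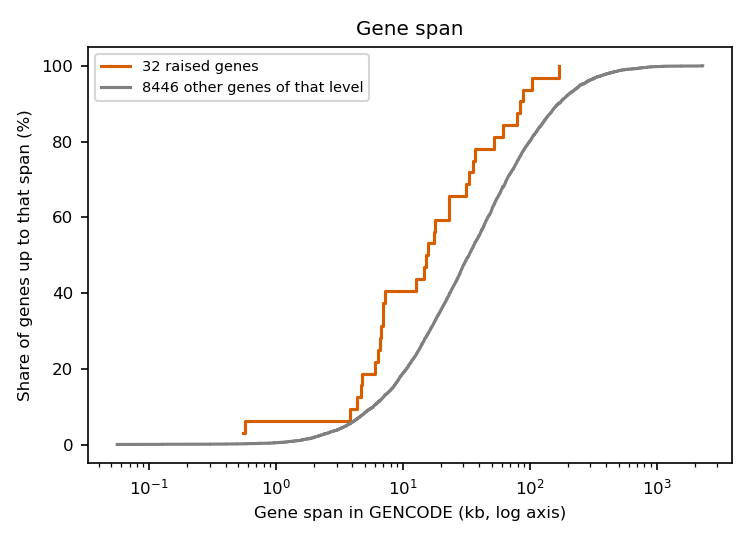
Share of genes (%) with a genomic span up to the value on the horizontal axis (kb, log axis), for 32 raised genes with a GENCODE model (orange) and 8446 other tested genes of the same range of expression (gray). The orange line lies to the left over most of its course, with medians of 15.5 and 33.2 kb.

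Many members lay shortly after another gene on the same strand. This position was examined after values of the leading members had been seen. Of 33 members with a known strand, 17 (51.5%) had a tested gene on the same strand that ended within 20 kb before their start, against 25.3% of 8541 other genes of the same range of expression. The shares were 36.4% and 10.4% within 5 kb, and 75.8% and 40.5% within 50 kb. The upstream gene was at 50 CPM or more in 13 of the 17 (76.5%), against 34.4% for the other genes. These are counts of positions, without a test or matching of levels, and position was not separated from gene span.

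The genes upstream of the leading members were abundant and rose slightly. All 5 members with a log2 ratio of 2 or more that had such a neighbor followed one that rose. *MPC2*, the mitochondrial pyruvate carrier subunit that ends 2.54 kb before *ADCY10*, went from 941 ± 11 to 1153 ± 50 CPM (SD, n = 3 each; log2 fold change 0.29, SE 0.047, limma adjusted p = 5.9e-04). *NAP1L1*, a histone chaperone 4.81 kb before *PHLDA1*, went from 763 ± 31 to 886 ± 29 CPM (0.22, SE 0.049, limma adjusted p = 0.0040). *TMEM183A*, 1.64 kb before *PPFIA4*, went from 50.8 ± 1.0 to 61.7 ± 0.70 CPM (0.28, SE 0.043, limma adjusted p = 4.5e-04). In each case the upstream gene changed by far less on the log2 scale than the member that followed it, but by more in CPM. The means went from 0.483 to 8.30 CPM for *ADCY10*, 1.01 to 5.92 CPM for *PHLDA1* and 0.827 to 5.41 CPM for *PPFIA4*. *CHCHD2*, 8.62 kb before *PHKG1*, rose by 0.41 (SE 0.12, limma adjusted p = 0.014, and 0.055 without DMSO replicate 3), and the ribosomal protein gene *RPL21*, 14.3 kb before *RASL11A*, by 0.29 (SE 0.048, limma adjusted p = 7.3e-04).

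For the 12 pairs with a smaller member ratio the upstream genes were mixed. Over all 17 pairs 10 rose and 4 fell, against 30.1% and 43.8% for the other genes with an upstream gene within 20 kb, while under upper-quartile scaling 14 rose and 0 fell. *UQCRC1* before *COL7A1* rose by 0.52 and *NDUFB8* before *SEC31B* by 0.48, both of them respiratory chain components. *ARNT* before *CTSK* fell by 0.56, *TMEM110* before *ITIH4* by 0.37 and *FAM111A* before *DTX4* by 0.36.

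**Figure D4:**
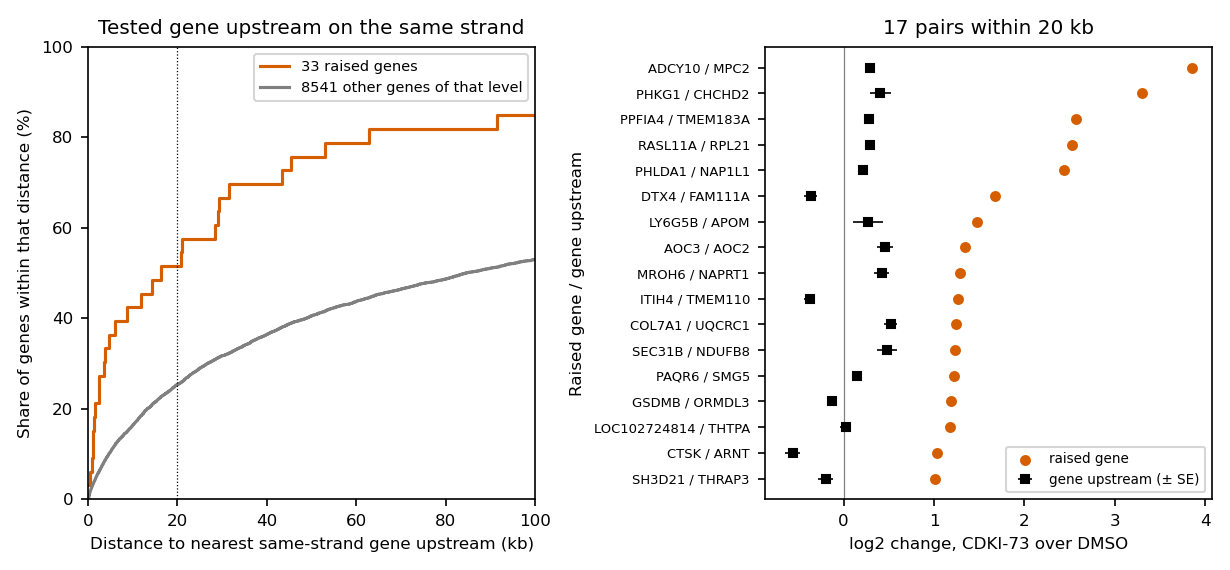
Left, share of genes (%) with a tested gene on the same strand ending within the distance on the horizontal axis (kb) before their start, for 33 raised genes (orange) and 8541 other tested genes of the same range of expression (gray), with a dotted line at 20 kb (51.5% and 25.3%). Right, log2 change of CDKI-73 over DMSO for the 17 pairs within 20 kb, with the raised gene as an orange point and the gene upstream as a black square with its standard error; the upstream genes lie between -0.56 and 0.52.

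Most of these upstream genes included, 55 neighbors within 20 kb or overlapping were tested. Of these, 24 rose (43.6%) and 17 fell (30.9%), against 24.2% and 48.2% of all tested genes, while under upper-quartile scaling 39 rose and 5 fell. The largest rise was 0.70 on the log2 scale, in LOC100130417 across from LOC284600, short of 2-fold, while 5 neighbors were at least 2-fold lower, as were 2986 of the 13373 tested genes. On the same strand 15 of 29 rose and 8 fell. Of the 26 others 9 rose and 9 fell. These were on the opposite strand, except for neighbors of LOC100128288, LOC100335030 and *RPS14P3*, whose strand was not known. The 5 that fell at least 2-fold were *PELO*, which lies within *ITGA1* on the same strand and dropped from 55.2 ± 0.88 to 4.01 ± 0.62 CPM (SD, n = 3 each; log2 fold change -3.76, limma adjusted p = 4.6e-08), *ZNF740* across from *CSAD* (-2.24), *GPANK1* beside *LY6G5B* (-1.81), *STK40* beside *SH3D21* (-1.14) and *PFKFB4* beside *COL7A1* (-1.13). Members and close neighbors thus differed in direction at these 5 places.

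Some members share sequence or position with another transcript, so their reads can be split or borrowed. Every 75-base stretch of the GENCODE model of *CHP1P2* also lies in transcripts of *IGF2R*, which contains it on the same strand. *IGF2R* went from 400 ± 53 to 484 ± 60 CPM (SD, n = 3 each, with limma adjusted p = 0.055). Transcripts of other gene models hold 86.5% of such stretches of *CELF6*, 63.2% of *LY6G5B* (with *CSNK2B* and a readthrough model), 57.5% of *ITIH4*, 18.8% of *L3MBTL1*, 16.1% of *SEC31B*, 13.2% of *ELFN2*, 10.9% of *CSAG4* (with *CSAG1* to *CSAG3*), 10.6% of *RNF138P1* (with *RNF138* and *PLPP1*), 9.62% of *AOC3* and 5.19% of *ITGA1*. These shares count sequence in GENCODE models, which may differ from those counted, and do not measure the error of a CPM value. The models span 571 bases for *CHP1P2* and 546 for *RNF138P1*, against 3131 and 5701 in RefSeq. How far reads were shared was not tested. The share was 0 for *ADCY10*, *PHKG1*, *PPFIA4*, *RASL11A*, *DCAF4L1*, *PHLDA1* and *DTX4*, but some of these overlap other genes in position. On the opposite strand *ADCY10* overlaps *DCAF6* (465 CPM with DMSO, 471 CPM with CDKI-73) and *PHKG1* overlaps *SUMF2* (128 and 164 CPM). *ADCY10* also overlaps a gene model on its own strand, and *PHLDA1* and *DTX4* overlap models on the opposite strand. *PPFIA4*, *RASL11A* and *DCAF4L1* had no such overlap in GENCODE. Which gene models and which strand column were counted is not stated in the sources used here, so overlap with genes on either strand cannot be weighed gene by gene.

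No motif searched was present in all member promoters. RefSeq promoters, from 250 bases before to 50 after the start, were matched for 23 members and compared with those of 10400 tested genes. A GC box (GGGCGG, either strand) was in 13 members (56.5%) and 70.4% of tested genes, a CCAAT box (CCAAT) in 4 (17.4%) and 37.4%, and the core of the cyclic AMP response element (TGACG) in 6 (26.1%) and 35.0%. The full element (TGACGTCA), which contains that core, was in *CELF6* alone (4.35% and 3.37%), the TATA box (TATAAA) in *COL7A1* alone (4.35% and 5.38%), an AP-1 site (TGANTCA) in *FAM227A* alone (4.35% and 4.15%) and an E-box (CACGTG) in *PPFIA4* alone (4.35% and 10.4%). AGAACA, found in androgen response elements, was in *PAQR6* and *DTX4* (8.70% and 8.72%). Median GC content was 67.7% in members and 65.3% in tested genes, with medians of 28 and 26 CpG. The promoter of *ADCY10* lay below both member medians. A match is a description of letters and does not show that a factor binds.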

How the data were processed

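RNA-seq of LNCaP cells treated with 250 nM CDKI-73 or DMSO for 4 h was analyzed, with 3 samples per group placed by their treatment label. The deposited values are CPM, made by the authors from single-end reads of 75 bp after STAR alignment to hg38 with gene counting. Named in the submitters' processing notes were edgeR 3.3 and R 3.2.3, besides FastQC and STAR. The CPM are rounded to 0.01 and sum to between 999999 and 1000008 per sample, so no TMM factor is in them. Counts were not used here, so counting error was not modeled.

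The members and the gene lists were chosen with earlier results of these data known. Genes with a mean of at least 0.5 CPM entered the test by limma 3.58.1 (R 4.3.3), which was run on log2(CPM + 0.1) with lmFit and trended eBayes and no block, with Benjamini-Hochberg adjustment over 13373 genes. Fold changes are on that scale and understate changes of low genes. A p-value sets the difference between group means against the spread among these 3 and 3 samples, moderated across genes. A direction was counted at an adjusted p of 0.05 or less. Relatives share the letters of a member's symbol before its first digit, with at most 20 per stem, which left out the stems RNF, RPS, SEC, FAM, COL and MIR. Coordinates and promoters came from RefSeq (GRCh38.p14) and gene models from GENCODE release 44; RefSeq placed 26158 of the 29744 genes (87.9%). Genes of the same range of expression had a mean of 2.06 to 84.4 CPM over the 6 samples, as the members had. Levels within this range were not matched. LOC100506548 set its upper end, while the member medians were 2.01 CPM with DMSO and 6.53 CPM with CDKI-73.

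Named genes are every member, with values by sample for the 15 largest ratios, the 10 highest CDKI-73 levels and the genes at the thresholds, the relatives and neighbors past the adjusted p, and up to 4 genes of each list with the largest change; others were named after their values were seen. Not every gene so chosen is reported here. Pseudocounts, filters, scalings, a replicate block and samples left out in turn were tried. No pairing of the samples by replicate number was evident. The script was tested on simulated data. Plots were drawn with matplotlib 3.10.9 in Python 3.11.15.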

Additional observations from a re-analysis of the deposited data

How the results depend on the processing

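The number of genes above 2-fold moved with the scaling. TMM factors and edgeR were not run, since CPM are not counts. Scaling to the median of gene ratios raised the median change of all genes by 0.17 on the log2 scale and scaling to the upper quartile by 0.49. The 42 members became 77 and 522 genes under these scalings, 65 with a level of 2 CPM and 27 with a pseudocount of 1 CPM, and 39 to 48 with 1 sample left out. All 42 were among the 77, the 522 and the 65, and the 27 were all among the 42. Under the upper quartile the median log2 ratio of the original 42 was 1.76. Genes at least 2-fold higher numbered 148, and 52 with a pseudocount of 1 CPM, 377 without a filter, 52 at a mean of at least 2 CPM, 787 under the upper quartile and 132 to 173 with 1 sample left out. Genes at least 2-fold lower numbered 2986, and 1856 under the upper quartile.

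Under median scaling 17 relatives rose, as did 4 active zone genes while 2 fell, and 1 adenylyl cyclase fell. Under the upper quartile, relatives gave 27 rises and 11 falls, neighbors 39 and 5, adenylyl cyclases 4 and 0, cyclic AMP genes 12 and 8, and active zone genes 7 and 1; 1 liprin rose, 1 gene of the PHLDA list fell, and 0 cancer-testis genes and 0 upstream genes fell. Without a filter 5 cancer-testis genes rose. With 1 sample left out, rises ranged from 0 to 2 for adenylyl cyclases (0 without CDKI-73 replicate 2), 1 to 3 for active zone genes, 0 to 1 for the PHLDA list (0 without DMSO replicate 2 or 3) and 5 to 7 for cancer-testis genes, and falls of adenylyl cyclases from 1 to 2. The upstream window of 5 kb or 50 kb gave 10.4% or 40.5% of other genes. The causes were not tested.

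The residuals of same-numbered samples correlated at -0.29, 0.11 and -0.23, and those of differently numbered samples between -0.22 and 0.34. No pairing by number was evident, and whether samples shared a batch was not tested. With the replicate number as a block, 148 genes were at least 2-fold higher, 0 adenylyl cyclases rose and 1 fell, 1 active zone gene rose and 5 cancer-testis genes rose. Of 359 comparisons over 28 named genes, 354 kept direction and side of the threshold. The other 5 lost the call: *CHCHD2* without DMSO replicate 3, *PHLDA2* without DMSO replicate 2 or 3, and *PHLDA3* and *ADCY9* under the upper quartile.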
